A study of Mus musculus with 24 samples.

Results

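The Tead genes and the genes of their Yap, Taz and Vgll cofactors were followed through the differentiation of mouse myoblasts, with and without silencing of Tead1 and Tead4. The genes were chosen by name. Every row of the deposited count table was taken whose gene name was Tead1, Tead2, Tead3, Tead4, Yap1, Wwtr1, Vgll2, Vgll3 or Vgll4, which gave 10 rows of 28109 and 9 of the 27154 distinct gene names. Tead1 had a second row for a short transcript that shares 3846 of its 3848 bases with the main gene and collected 3 reads over all 24 libraries, so it is not described further. All 9 genes passed the filter on low counts in each fit, and the lowest count of any of them was 117.

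PolyA RNA was sequenced in C2C12, a permanent myoblast line of the mouse labelled with the C3H strain, and in primary myoblasts (PMs), labelled C57/B6 and isolated from mice of 3 to 4 weeks. Cells were transfected with siControl, an siRNA labelled as directed to luciferase, or with siTead1/4, pooled siRNAs to Tead1 and Tead4 together. RNA was taken 24 hours after transfection from undifferentiated cells (day 0), and at day 3 and day 6 in medium with 2% horse serum. Each of the 12 groups had 2 biological replicates. Neither gene was silenced alone in these libraries, so the effects of losing Tead1 and losing Tead4 cannot be told apart. Cell type and strain cannot be told apart either. The C2C12 libraries held between 25453830 and 52784510 reads on genes and the PM libraries between 32571583 and 51110723.

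The C2C12 libraries varied more than the PM libraries. The common biological coefficient of variation of the C2C12 libraries was 0.242, and that of the PM libraries 0.15. The replicates lay furthest apart in siTead1/4 C2C12 cells at day 0 and day 3, where the log2 ratio of the replicates had an SD over genes of 0.736 and 0.731. In the other 10 groups it was between 0.401 and 0.621. The siTead1/4 libraries of C2C12 cells at day 0 also differed in Tead1 itself, at 30.05 CPM in replicate 1 and 4.78 CPM in replicate 2 (CPM, the count scaled to library size within the cell type). For several results that rest on them, values without each are given.

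Markers of myoblasts and myotubes were present in all groups, but the starting points differed. The summed CPM of 6 myotube genes (Myog, Myh3, Ckm, Acta1, Tnnt3 and Tmem8c) in siControl cells at day 0 was 79.8 and 23.7 in C2C12 cells and 8736 and 8135 in PMs. Myh3, an embryonic myosin, led the list in PMs with a mean of 3950 CPM. The PMs labelled undifferentiated thus already held far more muscle transcripts than the C2C12 cells. The part of this in the comparisons between cell types was not tested. In bulk RNA, fewer cells of a type and less RNA per cell cannot be told apart.

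Markers of other cell types were mostly low. The 6 endothelial genes summed to at most 16.6 CPM in any library and the 6 macrophage genes to at most 6.03 CPM, with Emr1 and Ptprc at 3 counts or fewer in every library. The 6 Schwann cell genes summed to at most 27.01 CPM, and Ngfr was the most abundant in 8 of 12 groups. The 6 fibroblast genes were higher at later days in PMs, at 97.7 and 67.6 CPM at day 0 and 2854 and 1816 CPM at day 6 in siControl cells, and Col1a1 made up most of the sum. In C2C12 cells at day 0 the fibroblast genes Dpt, Lum and Thy1 were at 0 with siControl and at 3 counts or fewer with siTead1/4. Of the 6 adipocyte genes Pparg reached a mean of 45.2 CPM in siTead1/4 C2C12 cells at day 0, while Adipoq, Cidec, Lep and Plin1 stayed at 3 counts or fewer there.

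Tead proteins bind DNA through a TEA domain and do little to transcription on their own. They recruit cofactors that occupy overlapping parts of the same surface. Yap1 and its relative Taz, the product of Wwtr1, are coactivators that the Lats kinases of the Hippo pathway keep out of the nucleus by phosphorylation. Vgll proteins contact Tead through a short Tondu motif. Vgll2 is enriched in skeletal muscle, and Vgll4 competes with Yap1 and acts mainly as a repressor. Tead sites, also known as MCAT elements, lie in the regulatory regions of many muscle genes.

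The core letters of an MCAT element are CATTCC. They were looked for on both strands of the RefSeq promoter windows (GRCm38.p6, 250 bases before to 50 after a start) of the 7 members that had one, to show where a Tead site could lie next to the Tead genes and their own cofactors. Windows of Tead1 and Tead4 were not used here. CATTCC was found for 5 of 7 genes (Tead3, Yap1, Wwtr1, Vgll3 and Vgll4) and not for Tead2 or Vgll2, against 16.6% of the 27025 genes with a window and 14.7% of 32851 windows. A match is a description of the sequence and not evidence of binding. No other motif was searched. The stretches around the matches are shown on the strand of the gene, with the motif in capitals, CATTCC on that strand or GGAATG on the other.
Tead3, 114 and 123 bases upstream, chr17:28350697-28350726 (minus strand): gctCATTCCgtaCATTCCggccatccccct
Tead3, 182 bases upstream of another start, chr17:28350970-28350999 (minus strand): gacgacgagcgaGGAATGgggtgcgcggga
Tead3, from the second base after the first start, chr17:28350581-28350610 (minus strand): aggtaagcccggGGAATGcaactcggaggc
Yap1, 141 bases upstream, chr9:8004720-8004749 (minus strand): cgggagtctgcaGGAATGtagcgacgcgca
Wwtr1, 136 bases upstream, chr3:57576029-57576058 (minus strand): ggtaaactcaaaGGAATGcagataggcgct
Vgll3, 63 bases upstream, chr16:65815114-65815143 (plus strand): cccgcctccccaCATTCCggctaccctgcc
Vgll4, 82 bases upstream, chr6:114969268-114969297 (minus strand): cgagtggggtggGGAATGctgagaaatgcc
Tead3 stood out for a pair of motifs that lie 3 bases apart on the same strand.

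In the build of the count table (mm9), Tead1 spans 119822832 to 120050319 on the plus strand of chromosome 7, and Tead2 spans 52471123 to 52489005 on the same strand. Tead3 lies on the minus strand of chromosome 17 (28468616 to 28487750) and Tead4 on the minus strand of chromosome 6 (128174306 to 128250841). Yap1 lies on chromosome 9 (7931999 to 8004596, minus strand) and Wwtr1 on chromosome 3 (57259571 to 57379832, minus strand). Vgll2 lies on chromosome 10 (51742308 to 51748277, plus strand), Vgll3 on chromosome 16 (65815878 to 65863302, plus strand) and Vgll4 on chromosome 6 (114810646 to 114920012, minus strand). All are protein-coding genes, and the counts are sums over their exons. The Tead genes resemble each other, but their transcripts share only short runs of identical sequence. Over the 36 pairs of members the longest was 59 bases between Tead3 and Tead4, followed by 35 bases between Tead2 and Tead3 and 23 bases between Tead2 and Tead4. The read length of these RNA libraries is not given in the sources used here, so reads within these runs could be assigned to either gene.

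Levels were compared between genes as RPKM, in which the count is scaled to library size and to gene length. The length came from the deposited table. For Yap1 that length is 50.9% of the summed exons in GENCODE vM1, for Tead3 69.9%, for Tead2 79.3% and for Tead1 96.7%, and for the other 5 genes the lengths are equal. If reads were counted over all exons, the RPKM of Yap1, Tead3 and Tead2 is overstated, that of Yap1 most and that of Tead3 next. For Tead1 the direction is not known, since 3846 of its 10865 bases are shared with its second row. Reads there may have been set aside as ambiguous, which would understate its RPKM and its place in the orders below. The length used does not affect any comparison of a gene between samples.

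By mean RPKM Wwtr1 was the most abundant cofactor in 9 of 12 groups, and Tead4 led the Tead genes in siControl cells from day 3. In siControl C2C12 cells at day 0 the order was Wwtr1 (33.5 ± 2.74 RPKM, SD, n = 2), Yap1 (26.2 ± 0.725), Tead2 (21.9), Vgll4 (11.5), Vgll3 (9.96), Tead1 (8.44), Vgll2 (6.95), Tead3 (6.64) and Tead4 (5.56). The first 4 were apart from their neighbours in both replicates, whereas the ranges of Vgll3 and Tead1 overlapped. By day 6 Wwtr1 was at 83.8 RPKM and Tead4, last at day 0, was next with 32.8 RPKM. Parts of this order depend on the length. With exon lengths of GENCODE vM1 Yap1 (13.3 RPKM) came after Tead2 (17.4 RPKM) at day 0, and Tead3 (4.64 RPKM) was last, after Tead4 (5.56 RPKM). Wwtr1 and Tead4 were the first 2 at day 6 with either length.

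PMs began with another order. Tead2 (39.0 RPKM) and the muscle cofactor Vgll2 (34.0 RPKM) came first at day 0 in siControl PMs, ahead of Yap1 (30.6), Wwtr1 (24.8) and Vgll3 (24.6). At day 3 Tead4 led with 54.3 RPKM, and at day 6 Wwtr1 led with 70.8 RPKM. With exon lengths of GENCODE vM1 in place of the deposited ones, Vgll2 came before Tead2 at day 0, at 34.0 and 31.0 RPKM, and Yap1 was sixth, at 15.6 RPKM. The leading gene was the same with either length at days 3 and 6.

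**Figure D1:**
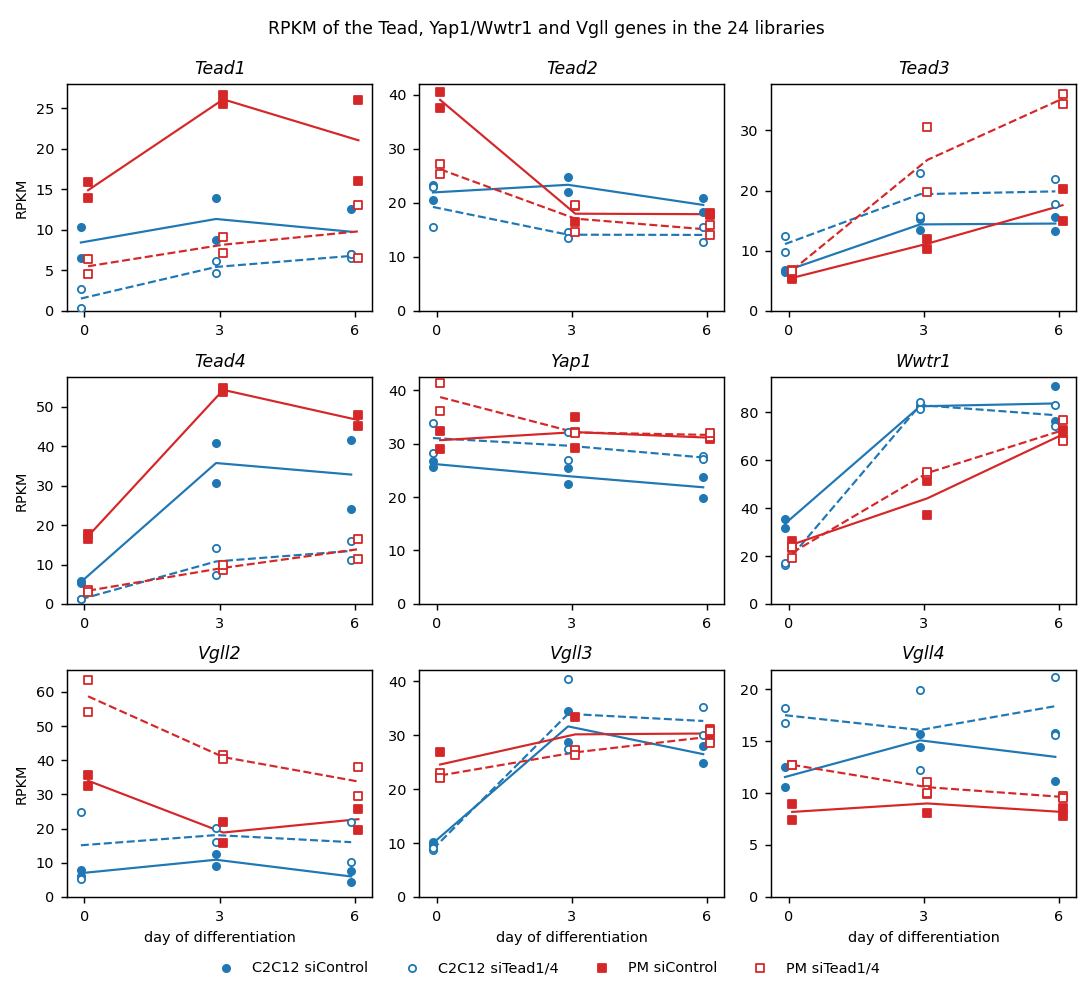
RPKM (vertical axes, from 0) of each of the 9 genes against the day of differentiation. Points are single libraries and lines join the means of 2 replicates, for C2C12 (blue circles) and PMs (red squares), with siControl filled on solid lines and siTead1/4 open on dashed lines. Wwtr1 rises in all 4 courses, from means of 16.7 to 33.5 RPKM at day 0 to between 70.8 and 83.8 at day 6, while Yap1 stays between 19.8 and 41.3 RPKM in every library.

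Among the 9 genes Yap1 varied least and Tead1 and Tead4, both silenced, most, though for Tead1 this rests on 1 library. The highest library exceeded the lowest 2.08-fold for Yap1 (19.8 to 41.3 RPKM), 2.86-fold for Vgll4 and 3.2-fold for Tead2. Tead1 spanned 64.3-fold (0.414 to 26.6 RPKM) and Tead4 46.1-fold (1.19 to 54.8 RPKM). Without siTead1/4 replicate 2 of C2C12 cells at day 0 the span of Tead1 was 10.03-fold (2.66 to 26.6 RPKM) and that of Tead4 45.1-fold. The largest span of a gene that was not silenced was that of Vgll2, at 14.6-fold (4.35 to 63.4 RPKM), which exceeds that of Tead1 without this library.

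The siTead1/4 treatment was checked first on its targets. Tead4 was lower in every siTead1/4 library than in both siControl libraries of its day. The share of all genes whose groups did not overlap was not counted. A lack of overlap is therefore only a description, here and below. In C2C12 cells it was at 19.8 and 22.2 CPM with siControl and 4.55 and 4.54 CPM with siTead1/4 at day 0, at 113 and 151 CPM against 26.6 and 51.2 CPM at day 3, and at 89.0 and 153 CPM against 40.7 and 58.9 CPM at day 6. In PMs the pairs were 64.2 and 59.5 against 13.1 and 11.0 CPM at day 0, 186 and 189 against 29.4 and 33.5 CPM at day 3, and 155 and 166 against 38.8 and 56.7 CPM at day 6. The groups did not overlap at any day. The remaining level was lowest in PMs at day 3, at 15.6% and 17.9% of the siControl mean, and highest in C2C12 cells at day 6, at 33.7% and 48.7%.

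Tead1 differed less evenly. In siControl C2C12 cells its replicates differed 1.59- to 1.79-fold (74.6 and 118 CPM at day 0, 97.5 and 155 at day 3, 78.1 and 139 at day 6). With siTead1/4 it was at 30.05 and 4.78 CPM at day 0, 68.1 and 50.8 CPM at day 3, and 72.5 and 79.4 CPM at day 6. The groups overlapped at day 6, when 66.6% and 73.0% of the siControl mean remained. In PMs it fell from 172 and 151 CPM to 69.3 and 49.7 CPM at day 0 and from 278 and 267 CPM to 95.6 and 74.3 CPM at day 3. At day 6 it was at 269 and 167 CPM with siControl and 135 and 68.3 CPM with siTead1/4.

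By the test across all genes (edgeR quasi-likelihood, calling a gene at a Benjamini-Hochberg adjusted p below 0.05 when it also moved by more than 1 on the log2 scale), Tead4 was called down at 5 of the 6 comparisons and Tead1 at 2. Members called in C2C12 cells were 2 of 9 at day 0, 1 at day 3 and 0 at day 6, beside 0.438%, 1.27% and 0.0457% of the 15303 genes tested. In PMs they were 2, 4 and 2 of 9, beside 2.6%, 3.3% and 0.743% of 16144 genes. At day 6 in C2C12 cells 2 members and 1064 genes in all had an unadjusted p under 0.05, and DESeq2 called 0 members and 143 genes. Since the silenced genes are members, these counts include the targets of the siRNA.

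In C2C12 cells the log2 fold change of Tead4 was -2.21 (SE 0.365, adjusted p 0.036) at day 0. It was -1.76 (SE 0.349, adjusted p 0.0425) at day 3 and -1.28 (adjusted p 0.318) at day 6. With 1 library left out the day 6 value ranged from -1.62 to -0.84, the latter without siControl replicate 2. It stayed uncalled at day 6 under 11 of 12 alternatives. Leaving out any 1 of the 4 libraries raised the adjusted p to between 0.0751 and 0.21 at day 0 and between 0.0543 and 0.267 at day 3. In PMs the values were -2.36 (adjusted p 0.000262), -2.58 (adjusted p 9.2e-05) and -1.75 (adjusted p 0.00199), and no left-out library ended a call. At day 6 the adjusted p was 0.0742 in a fit of those 4 libraries alone. For Tead1 in PMs the log2 fold change was -1.44 (SE 0.312, adjusted p 0.0211) at day 0, -1.68 (SE 0.313, adjusted p 0.0107) at day 3 and -1.10 (adjusted p 0.143) at day 6. The day 6 value lay between -0.69 and -1.67 without 1 of the 4 libraries, and it was called by DESeq2 (-1.10, adjusted p 0.0124) and without a filter on low counts (-1.08, adjusted p 0.000404). The day 0 call was lost without any 1 of the 4 libraries (adjusted p 0.0729 to 0.149), and the day 3 call without siControl replicate 1 (0.0611) or siTead1/4 replicate 2 (0.0889). Both were also lost when all 24 libraries shared one fit (adjusted p 0.239 and 0.144). In C2C12 cells the Tead1 values were -2.46 (adjusted p 0.168), -1.09 (0.501) and -0.52 (0.945). With 1 library left out they ranged from -1.39 to -0.72 at day 3 and from -0.88 to -0.0481 at day 6, the latter without siControl replicate 2, and without a filter on low counts the day 3 value was called (-1.09, adjusted p 0.00106). Without siTead1/4 replicate 1 the day 0 value became -4.34 (adjusted p 0.0341), and without siTead1/4 replicate 2 it was -1.69 (adjusted p 0.197). With all libraries it was called by DESeq2 (-2.47, adjusted p 0.00323), in one fit of all 24 (-2.45, adjusted p 0.0285) and without a filter on low counts (-2.50, adjusted p 1.2e-16). The fit without a filter called more genes in every siTead1/4 comparison, as given below. Its adjusted p, here and elsewhere, are therefore not on the same footing as the others.

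Of Tead2 and Tead3, the Tead genes not targeted, Tead3 was called and Tead2 was not. Tead2 was below siControl in siTead1/4 PMs at day 0, at 99.7 and 92.9 CPM against 150 and 139 CPM, and in C2C12 cells at day 3, at 55.3 and 49.9 CPM against 93.3 and 83.7 CPM. The first was a log2 fold change of -0.58 (adjusted p 0.0317), short of the fold set for a call, and the second of -0.75 (adjusted p 0.136). Tead2 was called in none of the 6 comparisons. Its groups overlapped in C2C12 cells at day 0 (69.8% and 106% of the siControl mean) and in PMs at day 3 (81.1% and 108%), and the direction there changed with 1 library left out.

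Tead3 was higher in both siTead1/4 libraries than in both siControl libraries in all 6 comparisons. With 2 libraries a side this can hold for very small differences. Wwtr1 in C2C12 cells at day 3 did not overlap either, at 98.2% and 99.3% of the siControl mean. In PMs it was at 16.6 and 17.2 CPM with siControl and 20.8 and 20.5 CPM with siTead1/4 at day 0, at 30.6 and 35.6 against 58.1 and 89.4 CPM at day 3, and at 43.5 and 59.7 against 101 and 106 CPM at day 6. In C2C12 cells it was at 20.9 and 22.2 against 31.5 and 40.5 CPM at day 0, at 48.1 and 42.6 against 72.0 and 48.4 CPM at day 3, and at 49.6 and 42.05 against 56.1 and 69.7 CPM at day 6. The closest approach of the groups was in C2C12 cells at day 3, where the lower siTead1/4 library exceeded the higher siControl library by less than 1 CPM.

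Tead3 was up-regulated in PMs at day 3 (log2 fold change 1.16, SE 0.197, adjusted p 0.00703) and at day 6 (1.01, SE 0.196, adjusted p 0.0391). In C2C12 cells its log2 fold changes were 0.74 (adjusted p 0.245), 0.41 (0.478) and 0.46 (0.781). The day 3 call ended without siControl replicate 1 (adjusted p 0.0733) or siTead1/4 replicate 2 (0.81, adjusted p 0.0436). The day 6 call was lost without any 1 of its 4 libraries, with an adjusted p of 0.0503 to 0.214, and was 0.0591 in one fit of all 24. The effect in PMs exceeded that in C2C12 cells by 0.73 (SE 0.305) at day 3, which was not past the threshold (adjusted p 0.301). This difference was 0.38 without PM siTead1/4 replicate 2. With 1 library left out the C2C12 log2 fold changes of Tead3 ranged from 0.54 to 0.91 at day 0. They ranged from 0.12 to 0.67 at day 3 and from 0.28 to 0.61 at day 6.

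Of the coactivator genes Wwtr1 was called once. It was down-regulated in siTead1/4 C2C12 cells at day 0, at 81.7 and 86.4 CPM against 160 and 178 CPM (log2 fold change -1.01, SE 0.172, adjusted p 0.0399). The replicates differed 1.11-fold with siControl and 1.06-fold with siTead1/4, and the groups did not overlap. The value is close to the fold threshold, and without any 1 of the 4 libraries the adjusted p was 0.0592 to 0.291. At day 3 the groups lay at 397 and 402 against 403 and 406 CPM (-0.02, adjusted p 0.982). In PMs at day 0 Wwtr1 was at 90.7 and 113 CPM against 111 and 126 CPM (-0.22, adjusted p 0.453). That value ranged from -0.38 to -0.07 with 1 library left out. The difference of 0.79 (SE 0.224) between the cell types at day 0 was not called (adjusted p 0.526).

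Yap1 was called in no comparison between siTead1/4 and siControl. Its log2 fold changes lay between 0.24 and 0.33 at the 3 days in C2C12 cells and were 0.33 (SE 0.112, adjusted p 0.106), -0.01 and 0.03 in PMs. With 1 library left out the C2C12 values ranged from 0.11 to 0.34 at day 0. They ranged from 0.16 to 0.42 at day 3 and from 0.21 to 0.46 at day 6. The lowest day 0 value was without siTead1/4 replicate 1. Both siTead1/4 libraries were above both siControl libraries in 4 of the 6 comparisons.

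Of the Vgll cofactors Vgll2 was called, in PMs. In PMs it was at 58.7 and 53.4 CPM with siControl and 104 and 88.5 CPM with siTead1/4 at day 0, at 24.99 and 34.8 against 65.7 and 63.4 CPM at day 3, and at 30.9 and 40.7 against 46.5 and 59.9 CPM at day 6. The groups did not overlap at any day. It was up-regulated at day 3 (log2 fold change 1.11, SE 0.189, adjusted p 0.00698), a call that ended without siControl replicate 1 (0.89, adjusted p 0.0677) and in one fit of all 24 libraries (adjusted p 0.3). At day 0 the value was 0.78 (adjusted p 0.0318) and at day 6 it was 0.57 (adjusted p 0.221), both short of a call.

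In C2C12 cells Vgll2 was lower and uneven. It was at 10.6 and 13.5 against 9.25 and 43.5 CPM at day 0. At day 3 it was at 21.4 and 15.4 against 26.8 and 33.2 CPM, and at day 6 at 12.9 and 7.35 against 17.4 and 37.1 CPM. The groups overlapped at day 0 and not at day 3 or day 6. With 1 library left out the log2 fold change ranged from 0.49 to 0.96 at day 3 and from 0.77 to 1.89 at day 6. It kept its direction and stayed uncalled under 10, 12 and 11 of 12 alternatives at days 0, 3 and 6. The day 0 value of 1.12 (adjusted p 0.58) came from siTead1/4 replicate 2 alone and became -0.39 without it. That library is also the one with the lowest Tead1. Its 6 myoblast markers summed to 2164 CPM against 858 CPM in replicate 1, and whether this bears on Vgll2 was not tested.

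Vgll4, the repressive cofactor, was at 52.4 and 52.5 CPM in siTead1/4 PMs at day 0 against 30.7 and 37.3 CPM (log2 fold change 0.63, SE 0.127, adjusted p 0.0156), short of the fold for a call. In C2C12 cells at day 0 it was at 78.9 and 73.9 against 46.5 and 54.5 CPM (0.60, adjusted p 0.474). Vgll3 had log2 fold changes between -0.18 and 0.31 over the 6 comparisons and was called in none.

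**Figure D2:**
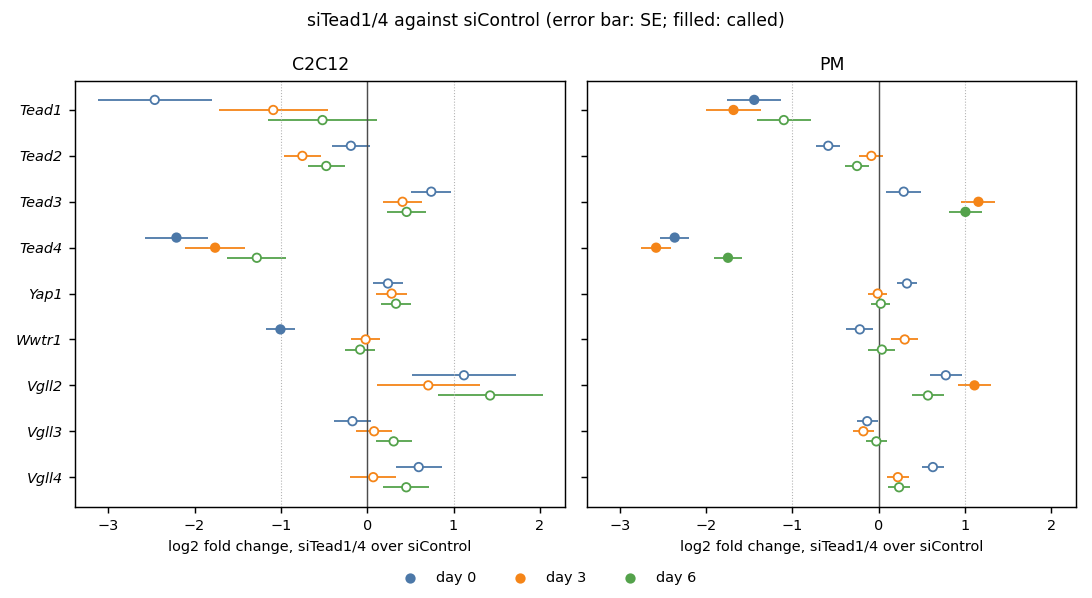
Log2 fold change of siTead1/4 over siControl (horizontal axis) for each gene, in C2C12 cells (left) and PMs (right), at day 0 (blue), day 3 (orange) and day 6 (green). Bars are SEs and filled points passed both thresholds. Tead1 and Tead4 lie to the left of 0 in both panels, and in PMs Tead3 is called to the right at days 3 and 6 and Vgll2 at day 3.

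The make-up of Tead transcripts differed between siTead1/4 and siControl cells. The summed RPKM of the 4 Tead genes in siControl PMs had means of 76.6, 110 and 103 at days 0, 3 and 6, and in siTead1/4 PMs of 41.8, 59.5 and 74.0. In C2C12 cells the means were 42.5, 84.8 and 76.8 with siControl and 33.1, 49.7 and 54.2 with siTead1/4. In every comparison both siTead1/4 libraries were below both siControl libraries. These sums and the shares below are descriptions and were not tested.

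At day 0 Tead2 made up the largest share of Tead RPKM in every group, between 50.9% and 62.7%. In siControl cells Tead4 took over, with 42.0% ± 4.64 (SD, n = 2) in C2C12 cells and 49.6% ± 0.830 in PMs at day 3, and 42.0% ± 9.08 and 45.2% ± 2.33 at day 6. In siTead1/4 cells Tead3 led instead, with 38.9% ± 8.69 in C2C12 cells and 41.7% ± 5.40 in PMs at day 3, and 36.7% ± 0.457 and 47.6% ± 0.598 at day 6. In PMs at day 6 the share of Tead3 was 47.2% and 48.1% with siTead1/4 and 14.3% and 19.8% with siControl. The shares add up to the whole, so a lower Tead1 and Tead4 raises the shares of the others.

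The leading gene was the same in all 12 groups with exon lengths of GENCODE vM1 and without the bases Tead1 shares with its second row. With exon lengths, however, Tead3 led by little in siTead1/4 C2C12 cells at day 6, at 31.2% and 30.5% against 27.7% and 31.5% for Tead4. At day 3 Tead3 was at 39.3% and 27.2% there and Tead4 at 17.7% and 35.2%, so that Tead4 was ahead in replicate 2 at both days. In PMs Tead3 was ahead in both replicates at both days. The leading gene depends on length, since Tead1 is the longest transcript, at 10865 bases against 3076 for Tead3. By CPM without length the leading gene was the same in 6 of 12 groups, and Tead1 led in 6 groups.

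**Figure D3:**
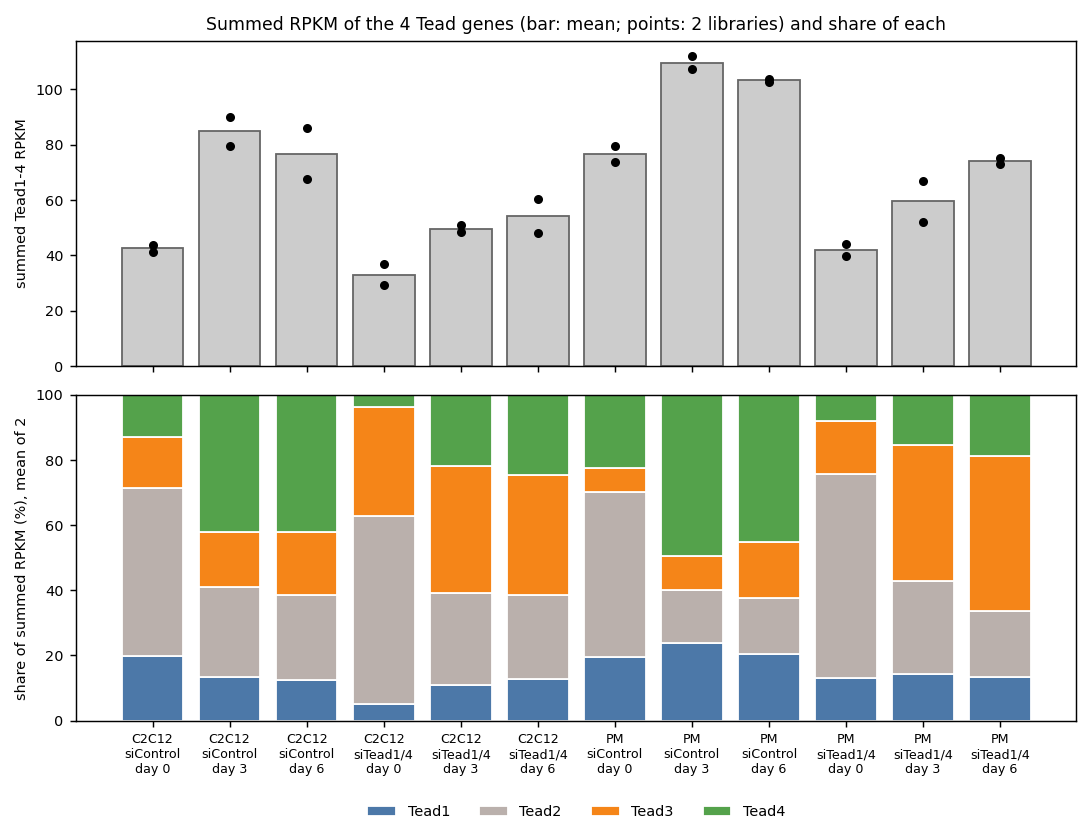
Top, summed RPKM of the 4 Tead genes in each of the 12 groups, with bars from 0 for the mean and points for the 2 libraries. Bottom, the mean share of each Tead gene in that sum in percent; Tead2 (grey) is the largest part at day 0, Tead4 (green) in siControl cells at days 3 and 6, and Tead3 (orange) in siTead1/4 cells at days 3 and 6.

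The members were then followed through differentiation of siControl cells. In C2C12 cells 4 of 9 members rose by day 3 and day 6, Tead3, Tead4, Vgll3 and Wwtr1, and none fell, where 28.7% and 31.1% of genes were called. In PMs 2 of 9 were called at day 3 and 4 at day 6, where 32.3% and 35.5% of genes were called. In view of these background shares the counts do not set the 9 genes apart. Between day 6 and day 3 no member was called in either cell type by edgeR, beside 0% of genes in C2C12 cells and 2.8% in PMs. At an unadjusted p under 0.05 there were 0 members and 406 genes in C2C12 cells and 2 members and 3547 genes in PMs. DESeq2 called 0 members in both, with 19 and 505 genes.

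Tead4 rose most of the 9 genes in C2C12 cells. Its log2 fold change from day 0 was 2.65 (SE 0.361, adjusted p 0.000343) at day 3 and 2.52 (adjusted p 0.000391) at day 6. In PMs it was 1.60 (SE 0.163, adjusted p 1.4e-05) and 1.37 (adjusted p 3.6e-05), from a higher start. Tead3 rose by 1.08 (adjusted p 0.00453) and 1.09 (adjusted p 0.00385) in C2C12 cells. These calls ended without siControl day 3 replicate 1 (0.99) and siControl day 6 replicate 1 (0.97). In PMs Tead3 was at 0.97 (adjusted p 0.00177, short of the fold) at day 3 and rose by 1.61 (adjusted p 5.4e-05) at day 6.

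Tead2 went the other way in PMs. It fell from 150 and 139 CPM at day 0 to 58.9 and 69.2 CPM at day 3 (log2 fold change -1.17, SE 0.141, adjusted p 4.6e-05) and to 62.2 and 64.2 CPM at day 6 (-1.19, adjusted p 3.7e-05). In C2C12 cells it was at 91.2 and 79.8 CPM at day 0, 93.3 and 83.7 CPM at day 3, and 79.3 and 69.7 CPM at day 6. Tead1 was not called in either cell type, with log2 fold changes of 0.39 and 0.17 in C2C12 cells and 0.75 and 0.43 in PMs. With 1 library left out the values ranged from 0.015 to 0.77 and from -0.29 to 0.56 in C2C12 cells, and from 0.66 to 0.86 and from 0.0497 to 0.73 in PMs.

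Wwtr1 rose and Yap1 was not called. In siControl C2C12 cells Wwtr1 went from 160 and 178 CPM to 403 and 406 CPM at day 3 (log2 fold change 1.26, SE 0.173, adjusted p 0.000357) and to 376 and 445 CPM at day 6 (1.28). In PMs it went from 111 and 126 CPM to 170 and 235 CPM at day 3 (0.78, adjusted p 0.00172, short of the fold) and to 313 and 332 CPM at day 6 (1.45, adjusted p 2.3e-05). Yap1 had log2 fold changes between -0.30 and 0.01. The ratio of Wwtr1 to Yap1 RPKM accordingly moved from 1.23 and 1.33 at day 0 to 3.86 and 3.82 at day 6 in C2C12 cells and from 0.717 and 0.914 to 2.23 and 2.32 in PMs. With exon lengths of GENCODE vM1 the ratios in PMs at day 0 were 1.41 and 1.80, so that which of the coactivators was the more abundant there depended on the length used.

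Vgll3 rose in C2C12 cells, from 34.1 and 35.6 CPM to 117 and 98.2 CPM at day 3 (log2 fold change 1.63, SE 0.215, adjusted p 0.000284) and 85.0 and 95.4 CPM at day 6 (1.37, adjusted p 0.000665). In PMs it was already at 74.0 and 89.1 CPM at day 0 and at 98.3 and 93.9 CPM at day 6 (0.24, adjusted p 0.115). The PM value ranged from 0.12 to 0.37 with 1 library left out. Vgll2 in PMs was at 58.7 and 53.4 CPM at day 0, 24.99 and 34.8 CPM at day 3 (-0.91, adjusted p 0.00186) and 30.9 and 40.7 CPM at day 6 (-0.65, adjusted p 0.0117), short of the fold at both days. Without siControl day 3 replicate 2 the day 3 value was -1.16 and passed. Vgll4 was called in none of these comparisons.

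With siTead1/4 Tead4 and Wwtr1 were called again in both cell types and Vgll3 in C2C12 cells. In C2C12 cells Tead4, Vgll3 and Wwtr1 rose by 3.10, 1.88 and 2.25 on the log2 scale at day 3 and by 3.45, 1.85 and 2.21 at day 6, from starting levels that were lower with siTead1/4 for Tead4 and Wwtr1. Without either siTead1/4 library of day 0 these 3 genes stayed called at both days, Tead4 at 3.10 at day 3 and 3.46 at day 6, Vgll3 between 1.80 and 1.94 and Wwtr1 between 2.17 and 2.30. Tead1 rose by 2.11 (adjusted p 0.0295) at day 6, a call lost without siTead1/4 day 0 replicate 2 (1.35) or either day 6 replicate. Without siTead1/4 day 0 replicate 1 the day 6 value was 4.00. At day 3 Tead1 was not called (1.76, adjusted p 0.058, edgeR). That value was 3.64 without siTead1/4 day 0 replicate 1 and 0.99 without replicate 2. In PMs Tead3, Tead4 and Wwtr1 rose by 1.84, 1.39 and 1.30 at day 3 and by 2.33, 1.99 and 1.70 at day 6. The counts were 3 and 4 of 9 in C2C12 cells, where 24.6% and 25.1% of genes were called, and 3 and 3 in PMs, where 28.3% and 31.9% were called.

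Whether the siTead1/4 effect changed between days was tested within each cell type. No member was called by edgeR or DESeq2 at day 3 or day 6 against day 0, beside 0% of genes at both days in C2C12 cells and 0.328% and 0.626% in PMs. At an unadjusted p under 0.05 there were 1 and 1 members in C2C12 cells (of 1745 and 1298 genes) and 4 and 2 in PMs (of 2170 and 2169 genes). DESeq2 called 329 and 159 genes in C2C12 cells and 276 and 292 in PMs. For Wwtr1 in C2C12 cells, the member with the lowest p, the effect differed by 0.99 (SE 0.241, adjusted p 0.153) at day 3 and 0.92 (SE 0.241, adjusted p 0.279) at day 6. For Tead1 there the differences were 1.37 (SE 0.891) and 1.94 (SE 0.895), with adjusted p of 0.622 and 0.604. These rest on the siTead1/4 libraries of day 0. Without replicate 1 they were 3.25 and 3.82 (adjusted p 0.057 and 0.0756), and without replicate 2 they were 0.60 and 1.18 (adjusted p 0.742 and 0.642). Without a filter on low counts Tead1 was called at both days (adjusted p 0.00617 and 3.44e-05).

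**Figure D4:**
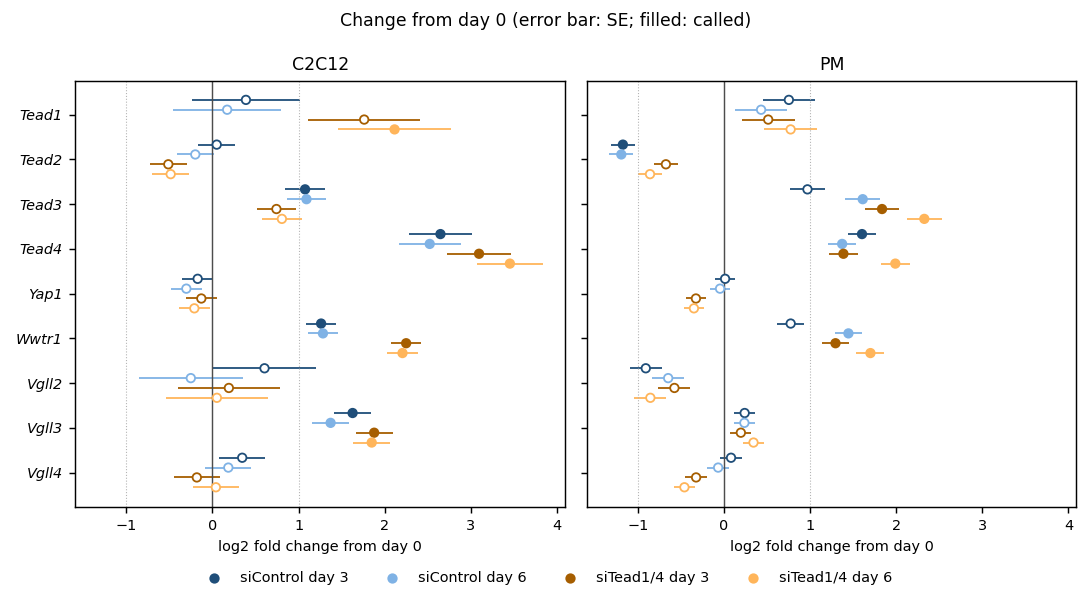
Log2 fold change from day 0 of the same siRNA (horizontal axis) for each gene, in C2C12 cells (left) and PMs (right). Dark and light blue mark siControl at days 3 and 6, brown and light orange siTead1/4 at days 3 and 6, bars are SEs, and filled points passed both thresholds. Tead4 and Wwtr1 lie to the right of 0 throughout, Vgll3 is called only in C2C12 cells, and Tead2 is called to the left in siControl PMs.

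PMs and C2C12 cells were also compared in siControl cells at each day. At day 0 3 of 9 members were higher in PMs, where 26.8% of 16926 genes were called. These were Tead4 (log2 difference 1.63, SE 0.295, adjusted p 0.000294), Vgll2 (2.29, SE 0.5, adjusted p 0.00148) and Vgll3 (1.30, SE 0.172, adjusted p 1.3e-05). Tead2 was at 0.83 (adjusted p 0.00146), short of the fold. At day 3 no member was called, beside 29.8% of genes, with 4 members and 8902 genes at an unadjusted p under 0.05 and 0 members and 4827 genes called by DESeq2. The cells differed then most in Tead1 (1.202, adjusted p 0.0832) and Wwtr1 (-0.90, adjusted p 0.000219). At day 6 Vgll2 was called (1.92, adjusted p 0.00588), beside 24.9% of genes. This rests on C2C12 siControl replicate 2, without which it was 1.57 (adjusted p 0.0702). Vgll4 was lower in PMs at days 3 and 6 by less than the fold for a call (-0.74 and -0.72, adjusted p 0.0095 and 0.0145). Without C2C12 siControl replicate 2 the day 6 value was -0.46 (adjusted p 0.166), and with 1 library left out the adjusted p reached 0.0866 at day 3.

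The response to differentiation differed between the cell types for 2 members at day 3 and 1 at day 6, beside 11.2% and 12.7% of genes. The change of Tead2 was lower in PMs than in C2C12 cells by 1.21 on the log2 scale at day 3 (-1.21, SE 0.256, adjusted p 0.0039). That of Vgll3 was lower by 1.37 at day 3 (-1.37, SE 0.24, adjusted p 0.000849) and by 1.11 at day 6 (-1.11, SE 0.24, adjusted p 0.00408). The day 6 call of Vgll3 ended without PM siControl day 0 replicate 2 (-0.96, adjusted p 0.0265). For Tead4 the difference was -1.03 (adjusted p 0.111) at day 3 and -1.12 (adjusted p 0.0785) at day 6. The day 6 value was -0.66 (adjusted p 0.397) without C2C12 siControl day 6 replicate 2, and it was called without replicate 1 (-1.46, adjusted p 0.0294), by DESeq2 (-1.13, adjusted p 0.0453) and without a filter (-1.15, adjusted p 0.00704). Without a filter the day 3 value was called too (-1.05, adjusted p 0.0184). The myotube markers were already expressed in PMs at day 0, as given above, and their part in these differences was not tested.

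The effect of siTead1/4 was called as different between the cell types for no member at any day, beside 0.00591%, 1.25% and 0.0354% of genes. At an unadjusted p under 0.05 there were 1, 2 and 0 members and 725, 2205 and 916 genes at days 0, 3 and 6. DESeq2 called 0 members and 32, 494 and 60 genes. The calls made in PMs and not in C2C12 cells are therefore not shown to differ between them.

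The 9 genes also differed in how they moved across the 24 libraries. As a description, over libraries that share groups and cell types, the log2 CPM of Tead1 and Tead4 had a Pearson r of 0.815. Both are targets of the siRNA. Tead2 and Tead3 had -0.716, Tead3 and Wwtr1 0.714, Vgll3 and Wwtr1 0.712, and Tead4 and Vgll3 0.698. Tead4 and Wwtr1 had 0.674, as did Yap1 and Vgll2. The genes whose log2 CPM followed a member most closely over the 24 libraries were R3hdm1 (r = 0.908), Cep68 and Mob1b for Tead1, Zfp704 (0.874), E2f4 and Lmnb2 for Tead2, Fam46a (0.939), Me3 and Podxl2 for Tead3, and Fmnl1 (0.951), Mark3 and Aif1l for Tead4. Thap6 (0.841), Dusp19 and Luc7l2 were closest to Yap1, and Rnf170 (0.963), Sike1 and Fam3a to Wwtr1. For Vgll2 they were C430049B03Rik (0.883), Elovl3 and Cxxc5, for Vgll3 Casq2 (0.949), Scn4a and Pgm5, and for Vgll4 Ahr (0.903), Ifitm1 and Lifr. Yap1 had the lowest leading value, and it is also the gene that varied least.

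Other known partners of Tead were listed as Vgll1, Fam181a, Fam181b and the steroid receptor coactivators Ncoa1, Ncoa2 and Ncoa3, of which 4 of 6 had a row. None was called between siTead1/4 and siControl in either cell type by edgeR or DESeq2. At an unadjusted p under 0.05 there was 1 of 4 in C2C12 cells at day 0, beside 1603 of 15303 genes. In PMs at day 3 there was 1 of 4, beside 3668 of 16144 genes. Ncoa1 followed opposite courses in siControl cells. In C2C12 cells it went from 14.8 and 17.2 CPM at day 0 to 37.5 and 44.6 CPM at day 3 and 33.8 and 39.7 CPM at day 6 (log2 fold change 1.36 and 1.196). In PMs it went from 162 and 162 CPM to 76.3 and 94.0 CPM at day 3 (-0.92, short of the fold) and 53.9 and 67.1 CPM at day 6 (-1.42). The difference in response was -2.26 (SE 0.304, adjusted p 7.31e-05) at day 3 and -2.58 (SE 0.306, adjusted p 1.58e-05) at day 6. Fam181b was low, at 1.01 and 1.27 CPM in siControl C2C12 cells at day 0 and 0.0847 and 0.31 CPM in PMs.

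The kinases, adaptors and scaffolds of the Hippo pathway, which control Yap1 and Taz, were followed as a list of 24 genes. In C2C12 cells 1 of them fell with siTead1/4 at day 0 (4.17%, beside 0.438% of all genes) and none was called by edgeR at day 3 or day 6 (1.27% and 0.0457% of all genes). The list medians were -0.05, 0.20 and 0.14 on the log2 scale, beside 0.02, 0.01 and 0.01 for all genes. An unadjusted p under 0.05 was found for 5, 5 and 6 of the 24, beside 1603, 2180 and 1064 of all 15303 genes. DESeq2 called 1, 1 (Wwc1) and 0 of them, beside 256, 603 and 143 genes in all. The gene that fell was Mob1b, an activator of the Lats kinases. Its correlation with Tead1, given above, includes these same libraries and is not a separate result. Mob1b was at 85.3 and 109 CPM with siControl and 47.0 and 41.1 CPM with siTead1/4 (log2 fold change -1.14, SE 0.185, adjusted p 0.0339). Without siTead1/4 replicate 1 it stayed called (-1.24, adjusted p 0.0479). The call was lost without siTead1/4 replicate 2 (-1.05, adjusted p 0.0898) or either siControl library (-1.31 and -0.95, adjusted p 0.133 and 0.264). In PMs at day 0 it was at 117 and 119 against 66.1 and 71.1 CPM (-0.78, adjusted p 0.006), short of the fold for a call.

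In PMs no Hippo gene was called at day 0 by edgeR or DESeq2, which called 420 and 454 genes in all. At an unadjusted p under 0.05 there were 5 of 24, beside 3756 of all 16144 genes. At days 3 and 6 1 rose and 2 fell (12.5% at each day, beside 3.3% and 0.743% of all genes). The list medians were -0.14, 0.07 and -0.02. The gene that rose was Jub, a LIM protein that restrains the Lats kinases, at 35.0 and 42.8 against 77.5 and 92.9 CPM at day 3 (1.13, adjusted p 0.00387). At day 6 its log2 fold change was 1.03 (adjusted p 0.0214). The day 3 call of Jub ended without siControl replicate 1 (0.99) or siTead1/4 replicate 2 (0.99), and the day 6 call without siTead1/4 replicate 1 (0.83) or either siControl library (1.09 and 0.97, adjusted p 0.0805 and 0.101). Those that fell were the atypical cadherin gene Dchs1 (-1.77 and -2.01) and the scaffold gene Wwc1 (-1.49 and -1.09). The day 6 call of Wwc1 was lost without siControl replicate 2 (adjusted p 0.0973), siTead1/4 replicate 1 (0.146) or siTead1/4 replicate 2 (0.0712). Dchs1 was low by then, at 5.51 and 7.21 against 1.69 and 2.06 CPM at day 3.

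Genes known in other cells as targets of Yap and Tead gave no call down by edgeR. Of 23 tested, none was called in C2C12 cells at any day, and 10, 16 and 22 had a log2 fold change above 0 at days 0, 3 and 6, with medians of -0.14, 0.26 and 0.42 (all genes 0.02, 0.01 and 0.01). An unadjusted p under 0.05 was found for 6, 7 and 5 of them, beside 1603, 2180 and 1064 of all 15303 genes. DESeq2 called 1, 2 and 1 of the targets, beside 256, 603 and 143 genes in all. Of these targets Igfbp3 at day 3 was down. In PMs 2 rose and none fell at each day (8.7%, beside 2.6%, 3.3% and 0.743% of all genes), with medians of -0.17, 0.21 and 0.21. Tgfb2, a growth factor gene, was at 27.7 and 44.8 against 102 and 132 CPM at day 0 in PMs. It rose at all days there (1.70, 1.55 and 1.30, adjusted p 0.00529, 0.00684 and 0.0445). The call was lost without siControl replicate 1 at day 0 (adjusted p 0.053) and at day 3 (0.0515), and without any 1 of the 4 libraries at day 6 (0.0839 to 0.204). In C2C12 cells Tgfb2 was at 11.9 and 11.7 against 32.9 and 29.5 CPM at day 0 (1.40, adjusted p 0.0582), and the value was 1.31 and 1.47 without siTead1/4 replicate 1 and 2. DESeq2 called it there (1.40, adjusted p 0.000632). It also called Tgfb2 in C2C12 cells at day 6, at 46.7 and 56.2 CPM with siControl against 121 and 137 CPM with siTead1/4. Ccdc80, the gene of a secreted protein, rose in PMs at day 0 (1.14, adjusted p 0.0114), a call lost without any 1 of the 4 libraries (adjusted p 0.0593 to 0.0991), and Jub, which is on this list too, at days 3 and 6.

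The 6 myotube markers were lower with siTead1/4 in C2C12 cells at days 3 and 6, with no overlap of the groups. They summed to 5332 and 6993 CPM with siTead1/4 and 14655 and 17149 CPM with siControl at day 3, and to 7261 and 13534 against 14086 and 17298 CPM at day 6. In PMs they summed to 27750 and 25394 against 30580 and 28544 CPM at day 3, where the groups did not overlap either, and to 23634 and 24265 against 24157 and 27928 CPM at day 6, where they did. The part of the myotube content in the siTead1/4 effects on the 9 genes was not tested.

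The lists were also counted in siControl differentiation, where 28.7% of all genes were called in C2C12 cells and 32.3% in PMs at day 3. Of the 24 Hippo genes 2 rose and 1 fell in C2C12 cells (12.5%), and 2 rose and 4 fell in PMs (25%). Of the 23 targets 6 rose and 1 fell in C2C12 cells (30.4%) and 3 rose and 6 fell in PMs (39.1%). At day 6, where 31.1% and 35.5% of all genes were called, the shares were 16.7% and 25% of the Hippo genes and 30.4% and 43.5% of the targets. The share called was thus below that of all genes for the Hippo list in both cell types and above it for the targets in PMs, and these differences were not tested.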

How the data were processed

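The deposited table held counts of reads per gene, made by the authors with TopHat2 2.0.10, Bowtie2 2.1.0 and HTSeq 0.6.1 on mm9 after CASAVA 1.8.2 per the labels. The submitters' processing notes also name DESeq2 1.8.1. Libraries were polyA-selected and unstranded, so overlapping genes on opposite strands cannot be told apart. Columns of 12 other libraries (36 columns) were not used, and no columns of the authors' own comparisons were used. CPM were scaled by TMM within a cell type, RPKM by TMM over all 24 libraries with the deposited length.

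Tests were edgeR 4.0.16 quasi-likelihood F tests (R 4.3.3, limma 3.58.1) on genes kept by filterByExpr, with 6 group means per cell type (15303 genes in C2C12 cells, 16144 in PMs) or 12 means over both (16926 genes) for comparisons between cell types. P-values were Benjamini-Hochberg adjusted over all genes tested. A gene was called when its adjusted p was below 0.05 and its log2 fold change above 1 or below -1. The script was tested on simulated data. Each group had 2 biological replicates. The p-values set a difference against the spread between replicates of these samples, estimated over all groups of a fit and moderated across genes. Alternatives were DESeq2 1.42.0, other filters and scalings, fits of all 24 or only the 4 libraries compared, a replicate block, and each replicate left out. RPKM with other lengths were added after seeing the data.

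The members and lists were chosen with earlier results of these data known. 1 further gene list is not reported here. All members are named. Of other genes, the text names the 3 most correlated with each member in log2 CPM (prior count 2), and up to 2 called in each direction per list and siTead1/4 comparison. Ncoa1, Fam181b, the DESeq2 calls Wwc1 and Igfbp3, and values of named genes in further comparisons were chosen after their values were seen. At the lowest count of a member (117) counting error alone is about 9.25%.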

Additional observations from a re-analysis of the deposited data

Results flagged for a closer look

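The response to differentiation of siControl cells differed between PMs and C2C12 cells for Tead2 at day 3 and for Vgll3 at days 3 and 6, by a test of the difference itself. The difference of the log2 fold changes from day 0, PMs minus C2C12 cells, was -1.21 for Tead2 at day 3 (SE 0.256, adjusted p 0.0039, edgeR), -1.37 for Vgll3 at day 3 (SE 0.24, adjusted p 0.000849) and -1.11 for Vgll3 at day 6 (SE 0.24, adjusted p 0.00408). Tead2 was below both of its day 0 libraries in both PM libraries of day 3 and between 83.7 and 93.3 CPM in C2C12 cells, where day 0 was at 91.2 and 79.8 CPM. Vgll3 in C2C12 cells was above both of its day 0 libraries in both libraries of either day. Such a difference was called for 11.2% of genes at day 3 and 12.7% at day 6. The Vgll3 call at day 6 ended without PM siControl day 0 replicate 2 (-0.96).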

How the results depend on the processing

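Over the alternatives, 1335 log2 fold changes of members kept their direction and their side of the threshold, 45 lost a call, 33 gained one and 24 changed direction. Of those of the named Hippo and target genes 122 kept theirs, 31 lost a call and 3 gained one. Tead4 in PMs at days 0 and 3 was called under all of them. Counts of members called with siTead1/4 in C2C12 cells at day 0 (2) became 1 with a minimum of 10 counts, 4 without a filter and 0 with only the 4 libraries compared, and 0 to 1 with a replicate left out. At day 3 (1) they became 0 with the minimum count, 0 with library sizes taken without the 20 most abundant genes, 0 with only the 4 libraries, 2 without a filter and 0 to 0 with a replicate left out. At day 6 (0) they became 2 without a filter. In PMs they became 1, 2 and 1 at days 0, 3 and 6 when all 24 libraries shared one fit, 0 at day 6 with only the 4 libraries, and 1 to 1, 1 to 4 and 1 to 1 with a replicate left out. The causes were not tested. Calls of a changing siTead1/4 effect in C2C12 cells (0) became 1 at day 3 (Wwtr1, 1.01) with all 24 libraries and 1 at each day without a filter. Between the cell types, siControl calls became 1 at day 3 and 2 at day 6 without a filter, and 0 to 1 at both with a replicate left out. Calls of a different response to differentiation became 4 at day 3 and 2 at day 6 without a filter, 2 at day 6 with DESeq2, and 1 to 2 at day 6 with a replicate left out. In siTead1/4 PMs the day 6 count against day 0 (3) was 3 to 5 with a replicate left out, and 5 without siTead1/4 day 6 replicate 2. Without a filter the genes called with siTead1/4 numbered 480, 1055 and 387 in C2C12 cells, against 67, 195 and 7, and 578, 804 and 335 in PMs, against 420, 532 and 120. DESeq2 called 256, 603 and 143 in C2C12 cells and 454, 588 and 224 in PMs.

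The labels do not say what the replicate numbers share. The deviations of same-numbered libraries correlated between -0.203 and 0.525 over 15 pairs of groups in C2C12 cells (6 above 0.1) and between 0.069 and 0.539 in PMs (14 above 0.1). Not all pairs were above 0.1 in either cell type, so the numbers were not taken to pair the samples, although in PMs only 1 of 15 fell short. With the replicate block, members called were 3 with siTead1/4 in PMs at day 6 (Tead1 added, -1.12, adjusted p 0.00686), and 3 at day 3 and 2 at day 6 for the difference in response between cell types, where Tead4 was added (-1.01 and -1.08).

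Among the log2 fold changes of members given in the text and recomputed, the direction changed for these. With siTead1/4 against siControl and a replicate left out, C2C12 values ranged from -0.53 to 0.0751 for Tead2 and from -0.39 to 1.84 for Vgll2 at day 0, from -0.0275 to 0.0177 for Wwtr1, -0.22 to 0.35 for Vgll3 and -0.32 to 0.39 for Vgll4 at day 3, and from -0.20 to 0.0366 for Wwtr1 at day 6. Wwtr1 at day 3 was also 0.0086 with all 24 libraries, 0.0072 without the 20 most abundant genes and 0.0085 with only the 4 libraries. In PMs the values ranged from -0.26 to 0.0013 for Vgll3 at day 0, from -0.31 to 0.11 for Tead2 and -0.13 to 0.12 for Yap1 at day 3, and from -0.0561 to 0.12 for Wwtr1 and -0.0769 to 0.0203 for Vgll3 at day 6. From day 0 in siControl cells, with a replicate left out, Tead1 in C2C12 cells at day 6 ranged from -0.29 to 0.56 and Yap1 in PMs from -0.12 to 0.14 at day 3 and from -0.13 to 0.0447 at day 6, where it was 0.0218 with all 24 libraries. DESeq2 size factors moved no mean RPKM by more than 0.0296 on the log2 scale. The leading Tead gene held in 6 of 12 groups by CPM without length. Of the shares of Tead genes 42 of 48 moved by at least the SD between replicates by CPM, 29 of 48 with exon lengths of GENCODE vM1 and 29 of 48 without the bases Tead1 shares.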
